A study of Rattus norvegicus with 12 samples.

Results

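The kidney cortex of undosed rats was described from the 3 control animals of a study of cephaloridine, a cephalosporin toxic to the kidney. These 3 animals are the samples titled as controls, out of 12 in all. They were male Fisher 344 rats aged 8 weeks that received saline alone by vein as a single dose of 0 mg/kg and were killed after 24 h. The other 9 animals shared sex, strain, age, route and time, and received 150, 300 or 600 mg/kg of cephaloridine (3 each); only their spread is used here, and no levels are compared between doses. The labels number the 3 controls as replicates, and they are called animals here although no label says that each is a separate one. Each is a homogenate of cortex with all its cell types, so fewer cells of a type cannot be told apart from less RNA per cell.

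The cortex holds the glomeruli, where podocytes and fenestrated endothelium filter the blood, and most of the length of the proximal tubule. The proximal tubule takes back glucose, phosphate, amino acids and filtered protein, makes glucose and ammonia, and secretes organic anions and cations. The thick ascending limb, distal convoluted tubule, connecting tubule and collecting duct follow, each with its own salt carriers, and the collecting duct carries principal cells, which take up sodium and water, and intercalated cells, which move acid and base. Some transcripts in such a tissue turn over within minutes to hours, among them the immediate early genes, chemokine genes and clock genes, while those of carriers and metabolic enzymes are usually steadier.

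A gene entered the ranking if its probe was well above background on all 3 arrays, and where a gene had several such probes the brightest one stood for it. Of 41012 probes, 23820 (58.08%) passed, 2171 passed on 1 or 2 arrays and 15021 on none. These stood for 19970 genes or transcripts of 35535 on the array, 10711 of them with a symbol in the reference gene table. Values are scaled signals: the processed signal of each array divided by that array's 75th percentile and multiplied by 657.2, the mean of the 3 percentiles (678.7, 648.6 and 644.1 for controls 1, 2 and 3). A rank orders probes by brightness, which depends on probe sequence as well as on the amount of transcript, and is not a count of molecules. No spot was saturated, and the shares of probes well above background were 60.86%, 60.85% and 59.59%. All 3 arrays lay on the same slide.

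Signal was concentrated in few genes. The 10 brightest genes held 3.192% of the summed signal of the ranking, the 100 brightest 18.19% and the 1000 brightest 59.64%. Signals ran from 340161 at rank 1 through 478.2 at the median rank to 23 at the last. The brightest gene was Ftl1, the light chain of the iron store ferritin, at 334564, 343732 and 342259 in controls 1, 2 and 3; the related Ftl1l1, ranked 3, can share signal with it. Fbp1, the fructose bisphosphatase of glucose synthesis, ranked 2 at 246925, 255216 and 256632. Acsm2, a mitochondrial medium-chain acyl-CoA synthetase, ranked 5 at 222392, 225333 and 230391. The animals lay close together for all 3 genes, with SDs of 0.02 to 0.03 on the log2 scale.

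Among the other 37 of the 40 brightest genes with a symbol were lysosomal proteases (Ctsb at rank 7, Ctsa at 17, Napsa at 26, Ctsl at 46), the dicarboxylate carrier Slc13a3 (rank 13), uromodulin (Umod, rank 15), the isocitrate dehydrogenase Idh2 (22), the glutathione transferase Gsta1 (27) and the sodium pump subunit Atp1b1 (28). The remainder were mostly genes of translation (Rplp1, Rps6, Rpl8, Eef1a1, Tpt1), of the respiratory chain (Atp5me, Cox6a1, Atp5pb, Ndufb8, Cox8a) and of ubiquitin (Ubb). Their highest and lowest animals differed by 1.019-fold to 1.17-fold, against a median of 1.088-fold over all ranked genes.

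**Figure D1:**
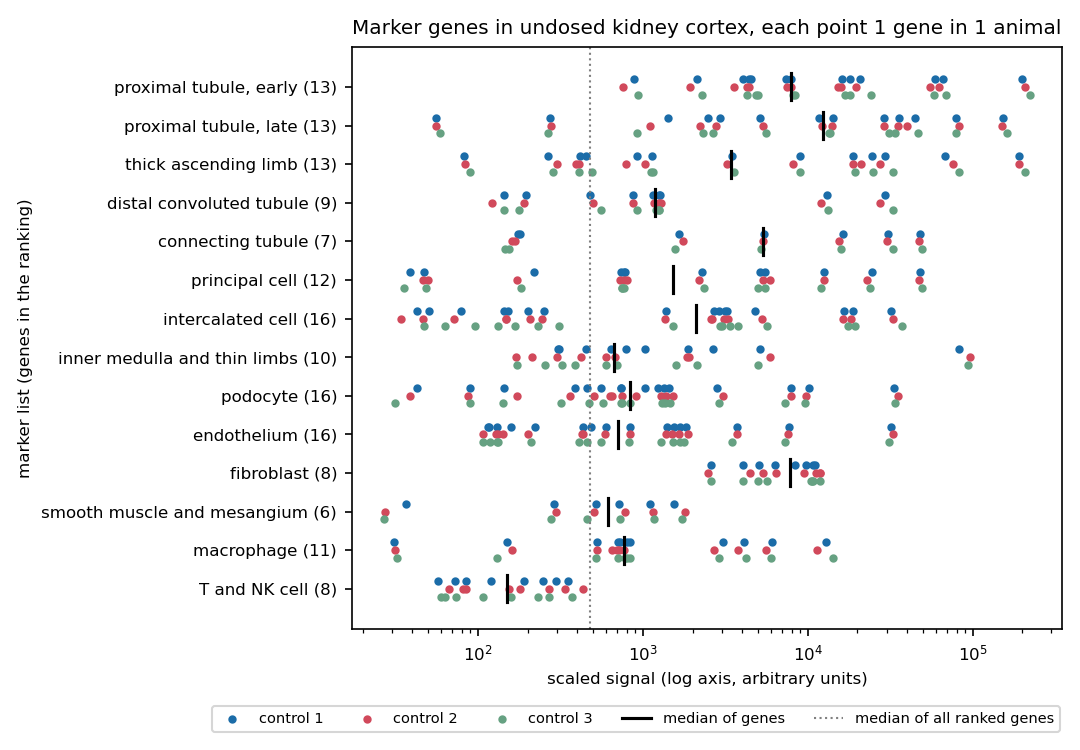
Scaled signal (log axis) of the genes of 14 marker lists in undosed kidney cortex, each point 1 gene in 1 animal, with the median of the genes as a black bar and the median of all ranked genes, 478.2, as a dotted line. Genes of the proximal tubule reach 209800, and the brightest gene of the T and NK cell list has a mean of 383.9.

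Genes of the proximal tubule were bright. Of the 14 genes of the early convoluted part, 13 were measured, 8 of these in the brightest 10% of the ranking and all 13 in the brighter 50%. The glucose carrier Slc5a2 gave 65622, 62456 and 69096, and the phosphate carrier Slc34a1 gave 58916, 55391 and 58546. The organic anion carrier Slc22a6, which takes up cephaloridine from the blood, gave 20600, 19681 and 24244, and was highest in control 3. The bicarbonate carrier Slc4a4 gave 17955, 15300 and 16750, with control 1 highest. Over the list, the highest and lowest animals differed by 1.064-fold to 1.241-fold.

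The late, straight part of the proximal tubule was represented by 13 measured genes of 13, with 7 in the brightest 10%. Slc3a1, a subunit of the cystine carrier, gave 78749, 82111 and 78868, and Slc7a13, another amino acid carrier of that part, gave 35710, 35178 and 33923. Slc22a7, an organic anion carrier, was the widest of the list at 1420, 1101 and 920.4, a 1.543-fold range (adjusted p = 0.1854). All 19 genes of the brush border and of protein uptake were measured, and 15 lay in the brightest 10%; the endocytic receptors Lrp2 (62362, 62147 and 65569) and Cubn (23614, 20661 and 22166) and the peptidases Dpp4 (64106, 61212 and 64645) and Ggt1 (52378, 52511 and 51931) were among them. The angiotensin-converting enzyme gene Ace (328.9, 349.2 and 288.9) of the same list was dimmer than the median rank.

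Glucose synthesis and fat oxidation were likewise well represented. Of 26 genes of proximal tubule metabolism, 25 were measured and 18 lay in the brightest 10%. Pck1, the rate-limiting enzyme of glucose synthesis, gave 72578, 84568 and 81856, and G6pc1, which releases glucose, gave 70308, 75243 and 79859. The creatine-synthesis gene Gatm gave 39922, 39433 and 40337, a spread of 0.02 on the log2 scale. The transcription factor gene Hnf4a gave 1338, 1287 and 1324, an SD of 0.03 on the log2 scale.

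The genes that handle drugs and oxidants were spread more widely along the ranking. Among 21 measured organic ion carriers, 7 lay in the brightest 10% and 18 in the brighter 50%. Slc22a2, an organic cation carrier, gave 4940, 5052 and 4974, and the exporters Abcc2 and Abcg2 gave 1583, 1543 and 1804, and 10585, 10792 and 11202. Of 14 measured cytochrome P450 genes, the fatty acid hydroxylase genes Cyp4a8 (90484, 106999 and 107262) and Cyp4a3 (63456, 64449 and 67642) were brightest, and the members of that family can share signal. Cyp2c11, the male-specific enzyme, was uneven at 1945, 2556 and 2703 (adjusted p = 0.2227). Of 21 measured genes of glutathione handling, 13 lay in the brightest 10%, with Gsta1 brightest (147032, 156094 and 159015). Gsta2 gave 101900, 104447 and 102546, and Gpx3, the plasma glutathione peroxidase made by the kidney, gave 98388, 96318 and 102183. Gstm1 (1240, 1696 and 2033, adjusted p = 0.1525) and Gstp1 (47608, 61845 and 60339, adjusted p = 0.285) were lowest in control 1.

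Downstream segments followed. In the thick ascending limb list 13 of 14 genes were measured and 6 lay in the brightest 10%. Umod gave 190997, 189747 and 206481, the salt carrier Slc12a1 18726, 18906 and 19444, and the growth factor Egf 29430, 27340 and 32919. Bsnd, a chloride channel subunit gene, had the widest range of the list at 926.4, 792.3 and 1114. In the distal convoluted tubule the thiazide-sensitive carrier Slc12a3 (475.1, 498.3 and 553.2) and the magnesium channel Trpm6 (1150, 1170 and 1252) were measured, and Pvalb was not well above background on any array. The calcium-binding protein of the connecting tubule, Calb1, gave 16334, 15360 and 15803, and the kallikrein Klk1 gave 30672, 30021 and 32667, whereas the calcium channel Trpv5 was not well above background on any array.

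In the collecting duct, principal cell genes were even between animals. Aqp2, the vasopressin-regulated water channel, gave 12590, 12479 and 12052, and Aqp3 gave 24632, 22741 and 23827. The sodium channel subunits Scnn1a (732.7, 724.8 and 749.6), Scnn1b (5531, 5356 and 5496) and Scnn1g (2277, 2189 and 2344) had SDs of 0.02 to 0.05. The median SD of the 12 measured genes was 0.0428, against 0.0637 over all ranked genes. SD falls with brightness. Divided by the SD usual at a gene's signal, from the trend described below, the median was 0.7819, against 0.8828 over all ranked genes. Of the intercalated cell list 16 of 17 genes were measured: the chloride-bicarbonate exchanger Slc26a4 gave 16614, 16388 and 17599, the anion exchanger Slc4a1 4805, 5295 and 5669, and the proton pump subunit Atp6v1g3 32060, 32839 and 37290. Their median SD was 0.1084.

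The glomerulus and vessels were present at intermediate rank. Of 18 podocyte genes 16 were measured. The slit diaphragm gene Nphs1 (1435, 1515 and 1461) lay in the brighter 50%, and the surface sialomucin gene Podxl gave 33183, 34976 and 33557. The podocyte transcription factor Tcf21 gave 735.7, 743.2 and 746.8, an SD of 0.01. All 16 endothelial genes were measured, with Kdr, the VEGF receptor, at 32074, 32840 and 31099 and the endomucin gene Emcn at 3694, 3715 and 3466. Of the fibroblast list 8 of 10 were measured, and the collagen gene Col1a1 was the least even at 8371, 9544 and 10514.

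Blood cell genes differed by type. Macrophage genes were measured in 11 of 12 cases, with Lyz2 at 12902, 11330 and 14232 and the complement gene C1qa at 3064, 2709 and 2887. T and NK cell genes were dim, 8 of 11 measured and none in the brighter 50%. Neutrophil genes were not well above background on all 3 arrays in any of the 6 cases on the array, and of 5 B cell genes on the array only Mzb1 was (26.2, 33.7 and 30.19). Globin genes were bright, with Hba-a3 at rank 65 (99022, 108172 and 115607).

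Most markers of adrenal gland, pancreas and urothelium were near or below background; genes of the medulla were measured and are given further on. The adrenal enzymes Cyp11b1, Cyp11a1 and Cyp21a1 and the ACTH receptor gene Mc2r were not well above background on any array. The adrenal enzyme gene Cyp11b2 was well above background on 1 array, at 4.269, 53.14 and 4.89. Star and Cyp17a1 were measured at mean signals of 35.45 and 27.08. Both were highest in control 2, against 27.03% of all ranked genes. The pancreatic enzymes Prss1, Cpa1, Amy2a3 and Pnlip were not well above background either, while Cela1 (8648, 8528 and 8098) and Ctrb1 (169.9, 201.9 and 163.4) were. A second Cela1 probe was not well above background on any array (4.765, 17.43 and 11.21). The urothelial genes Upk3a, Krt5 and Krt13 were not well above background, and Upk1b was, at 66.07, 50.73 and 80.75. Of 8 fat genes 4 were measured, with Cidec brightest at 821, 870.6 and 821.3. Genes of the proximal tubule, thick ascending limb and podocyte lists, chosen as markers of kidney, were measured as given above. All 10 genes of the inner medulla and thin limb list were measured too, so these lists do not set cortex apart from whole kidney.

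Genes of translation and respiration held much of the top of the ranking. Of 52 measured ribosomal protein genes 47 lay in the brightest 10% and 12 among the 100 brightest. Of 31 measured genes of oxidative phosphorylation 29 lay in the brightest 10% and 7 among the 100 brightest. Ribosomal protein genes had a median SD of 0.0367, against 0.0637 for all ranked genes and 0.0419 for those in the brightest 10%. Their highest and lowest animals differed by a median of 1.05-fold. The reference genes Gapdh (54224, 54961 and 57860), Hprt1 (15202, 14791 and 16297), Tbp (548.4, 552.0 and 579.5) and Actb (82987, 81693 and 76325) did not share an order, since Actb was lowest and the other 3 highest in control 3.

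The 3 animals were alike over the genome. Across the 19970 genes of the ranking, which are not independent replicates, Pearson correlations between pairs of animals ran from 0.9976 to 0.9981. The median SD of a gene on the log2 scale was 0.0637, and 5% of genes had an SD above 0.2393. The SD depended on brightness, from a median of 0.0419 in the brightest 10% to 0.1251 in the dimmest 25%. Repeated spots of 187 probes within an array had median SDs of 0.0565, 0.0543 and 0.0523, and the spot means of the same probes had a median SD of 0.0633 among animals; the 7 spike-in probes well above background had a median SD among arrays of 0.071. The first is a spread of single spots and the second of means of spots, so they are not like quantities.

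**Figure D2:**
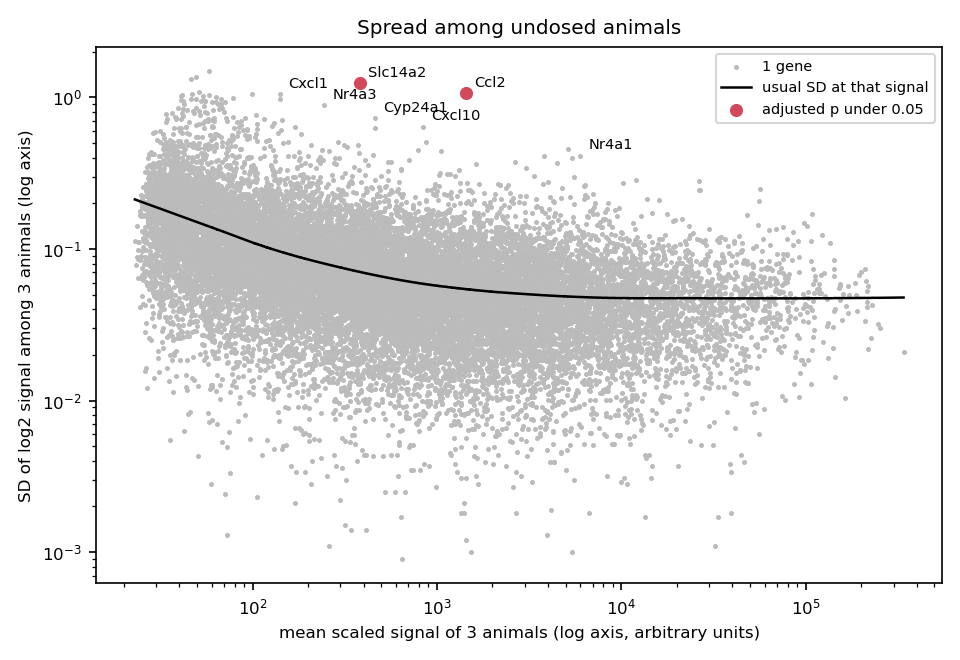
SD of log2 signal among the 3 undosed animals (log axis) against mean scaled signal (log axis), each grey point 1 of 19970 genes, with the usual SD at that signal as a line. Ccl2 and Slc14a2, in red, had adjusted p under 0.05, with SDs of 1.07 and 1.24.

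To find genes that varied more than others of like signal, each gene's variance among the 3 animals was set against a trend of variance on signal in limma, with a one-sided p and Benjamini-Hochberg adjustment over all 19970 genes. Only 2 genes, 0.01% of those tested, had an adjusted p under 0.05: the chemokine gene Ccl2 and the urea carrier gene Slc14a2. Without adjustment 1181 genes (5.914%) had a p under 0.05, and the next adjusted p was 0.08011. A range of 2-fold or more was found in 130 genes (0.651%), and 127 of these lay in the dimmer 50% of the ranking; the 3 in the brighter 50% were Ccl2, Cxcl10 and Cd83. With quantile normalization, a non-robust prior or a prior without trend, neither gene passed (0 genes called).

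Ccl2, the monocyte-attracting chemokine, gave 1150, 3296 and 790, so control 2 stood above the other 2 animals and control 3 lowest. Its SD was 1.07 on the log2 scale, 19.7 times the usual SD at that signal (adjusted p = 0.01617), and its high-to-low range was 4.17-fold. Leaving out control 2 ended the call (SD 0.38, adjusted p = 0.2874), and leaving out control 1 or 3 did not. In the dosed groups the SD of Ccl2 was 0.86, 0.88 and 0.57 at 150, 300 and 600 mg/kg.

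Other chemokine and cytokine genes had the same high animal. Of 14 measured genes of 18, 13 were highest in control 2, against 27.03% of all ranked genes. Control 3 was lowest for 9 of the 14, against 5853 of 19970 over all genes. The lists were chosen with earlier results of these data known, and the genes of a list are not independent. Counts of list members, here and below, are therefore descriptions and not tests. Cxcl1, a neutrophil attractant, gave 111.3, 317.6 and 77.76 (4.08-fold, adjusted p = 0.08011), and Cxcl10, a chemokine gene counted here in the interferon list and not among the 14, gave 659.5, 1399 and 638.0 (2.19-fold, adjusted p = 0.08011). Ccl7 gave 46.87, 124.9 and 37.20 with 1 probe and 41.01, 91.31 and 30.24 with another, so 2 probes showed the same order. Il1b gave 300.6, 402.9 and 200.6 with the brighter of its 2 probes, and Ccl3 409.8, 492.4 and 257.6. None of these passed over all genes. The exception to the pattern was Ccl21, at 700.4, 574.4 and 713.2, the lymph vessel chemokine, lowest in control 2. The median deviation of the list from the mean of the 3 animals was 0.26 for control 2 and -0.21 for control 3.

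Promoters of Cxcl1, Ccl7 and Cxcl10 are shown, since the same animal was high for all of them. Each is the 250 bases before the gene's start in RefSeq (GRCr8): Cxcl1 at chr14:17479322-17479571 on the minus strand, Ccl7 at chr10:67513845-67514094 on the plus strand and Cxcl10 at chr14:15988816-15989065 on the plus strand. Capitals mark, on both strands, the letters searched for kappaB (GGGNNNTTC, in 11.9% of 27457 windows), AP1 (TGAGTCA, 3.98%) and ISRE (GAAANNGAA, 7.99%), and on the gene's strand TATAAA (8.38%). Matches can overlap each other.
Cxcl1: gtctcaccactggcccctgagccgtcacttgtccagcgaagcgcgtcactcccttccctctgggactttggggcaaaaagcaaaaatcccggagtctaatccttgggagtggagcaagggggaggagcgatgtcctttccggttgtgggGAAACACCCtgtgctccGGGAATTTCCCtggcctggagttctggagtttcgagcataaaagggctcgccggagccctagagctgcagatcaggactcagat
Ccl7: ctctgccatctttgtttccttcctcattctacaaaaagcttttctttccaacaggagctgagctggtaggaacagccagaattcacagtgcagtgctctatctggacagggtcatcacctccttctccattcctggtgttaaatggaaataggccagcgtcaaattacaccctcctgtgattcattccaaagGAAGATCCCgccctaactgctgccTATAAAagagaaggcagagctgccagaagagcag
Cxcl10: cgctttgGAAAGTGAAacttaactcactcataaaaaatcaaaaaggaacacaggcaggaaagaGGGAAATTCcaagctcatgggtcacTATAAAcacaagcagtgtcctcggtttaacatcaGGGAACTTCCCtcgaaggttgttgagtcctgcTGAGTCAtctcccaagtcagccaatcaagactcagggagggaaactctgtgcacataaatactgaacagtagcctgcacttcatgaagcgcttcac
Of 10 genes of the chemokine and cytokine list with a window, which leaves out Cxcl10, 5 held the kappaB letters: Ccl7, Ccl20, Cxcl1, Il1b and Il1rn. The looser kappaB letters were taken after a first set, GGGANTTCC (1.51% of windows), matched 0 of the 10. A match is a description of the letters and not of binding.

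Immediate early genes showed the same order of animals. These genes, such as Fos and Egr1, are switched on within minutes of a stimulus and their transcripts decay quickly. Of 20 measured genes of 21, 18 were highest in control 2, against 27.03% of all ranked genes. Control 3 was lowest for 18 of the 20, against 5853 of 19970 over all genes. Nr4a1 gave 6254, 7761 and 4404, and Nr4a3 gave 295.4, 403.4 and 123.2 with 1 probe and 241.2, 339.6 and 102.4 with another. Egr1 gave 783.8, 1076 and 575.6, Fos 97.20, 157.5 and 78.49, and Atf3 700.0, 928.5 and 542.3. None passed over all genes (adjusted p = 0.08011 for Nr4a3, 0.1246 for Nr4a1 and 0.1525 for Egr1). Without adjustment 12 of 20 had a p under 0.05, against 5.914% of all genes. As above, this count is a description and not a test. The list's median deviation was 0.15 in control 2 and -0.19 in control 3. Its median SD was 0.1994 in the controls and 0.7969, 0.1502 and 0.1156 at 150, 300 and 600 mg/kg. The T and NK cell list also had 7 of 8 genes highest in control 2 (Cd3d at 353.2, 431.2 and 371.5; Klrd1 at 120.5, 154.5 and 107.7), and its summed signal was 1421, 1604 and 1335. The macrophage list went the other way, with 8 of 11 genes lowest in control 2 (median deviation -0.08) and summed signals of 29900, 26930 and 31150. Over all genes 7191 of 19970 were lowest in control 2. No neutrophil gene was well above background on all 3 arrays, so their level could not be compared. The part of these cells in the chemokine values was not tested.

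**Figure D3:**
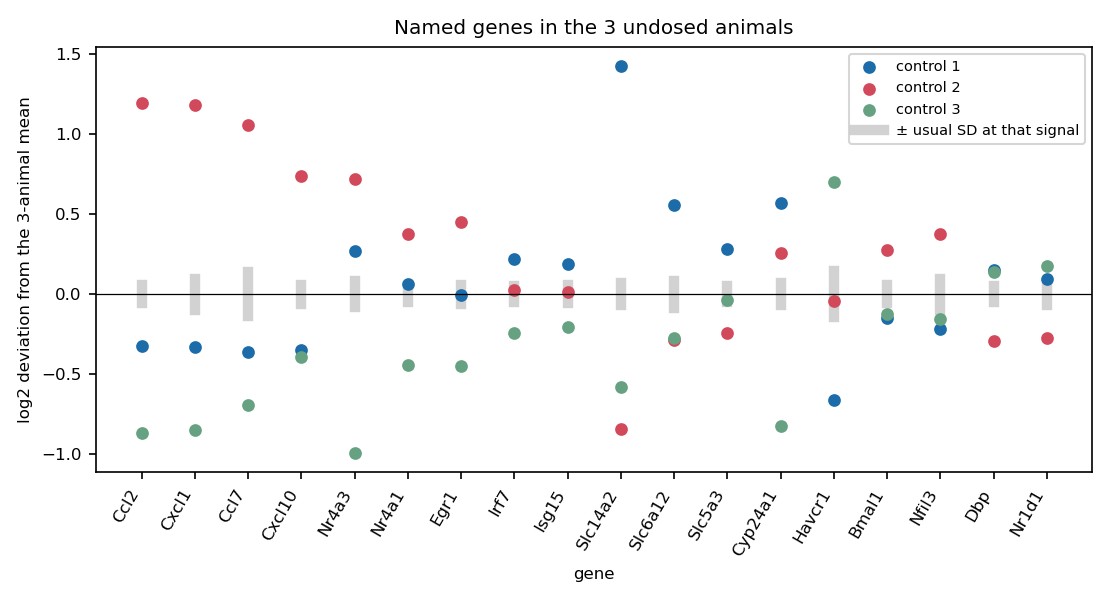
Log2 deviation of each animal from the mean of the 3 undosed animals for 18 named genes, with the usual SD at that gene's signal as a grey bar. Control 2 is highest for the chemokine and immediate early genes from Ccl2 to Egr1, and control 1 for Slc14a2, Slc6a12 and Slc5a3.

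Interferon-response genes had another order. Of 21 measured genes of 23, 12 were highest in control 1 and 18 lowest in control 3, against 29.23% of all genes highest in control 1 and 5853 of 19970 lowest in control 3. Irf7, a master regulator of the response, gave 2415, 2115 and 1757, the ubiquitin-like modifier gene Isg15 gave 1746, 1544 and 1328, and the antiviral gene Oas1a gave 1838, 1579 and 1376. Mx1 gave 177.8, 123.0 and 128.8. The other 9 genes departed from that order, 8 with control 2 highest and 1 with control 3 highest. Among the 8 were Cxcl10, Irf1 (599.8, 834.9 and 530.0), Gbp2 (4251, 4625 and 3757) and Ifit2 (662.9, 681.2 and 574.0). No gene of the list passed over all genes, and 11 of 21 had an unadjusted p under 0.05, against 5.914% of all genes.

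The promoter of Irf7 is shown because its letters match the interferon-stimulated response element, the site bound by the interferon-activated complex. It is the 250 bases before the gene's start in RefSeq (GRCr8, chr1:205800024-205800273, minus strand), with the ISRE letters, read on the other strand, in capitals.
Irf7: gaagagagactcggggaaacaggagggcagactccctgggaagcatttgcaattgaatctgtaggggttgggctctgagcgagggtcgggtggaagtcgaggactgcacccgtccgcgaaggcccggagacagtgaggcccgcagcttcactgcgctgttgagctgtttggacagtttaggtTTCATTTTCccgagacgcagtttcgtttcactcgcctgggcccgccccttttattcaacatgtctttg
Of 14 interferon-response genes with a window, 9 held the ISRE letters, among them Ifit3, Oas1a, Rsad2 and Ifi44, against 7.99% of all windows.

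Slc14a2, the urea carrier of the collecting duct, was the other gene called. Its brighter probe gave 1023 in control 1 and 213.3 and 255.3 in controls 2 and 3, an SD of 1.24 (17.6 times the usual SD, adjusted p = 0.01617) and a range of 4.80-fold. Its other probe gave 47.87, 59.84 and 52.19 and did not show this, with control 1 lowest. When the brightest probe over all 12 arrays or the mean of the probes stood for the gene, the call was lost (adjusted p = 0.9952 and 0.1832). It was also lost without control 1 (SD 0.18, adjusted p = 0.9132) and without control 2, where the SD was larger at 1.42 (adjusted p = 0.06267). The SD of the brighter probe was 2.24 at 150 mg/kg, 0.04 at 300 mg/kg and 2.17 at 600 mg/kg. That probe was not well above background on all 12 arrays, so its SDs in the dosed groups can include values near background. With only probes that were, the other probe stood for the gene, with an SD of 0.1623 in the controls.

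Control 1 was also highest for the osmolyte carriers of the medulla, Slc6a12 (306.0, 170.5 and 171.8; adjusted p = 0.1817) and Slc5a3 (2665, 1858 and 2136; adjusted p = 0.2106). Of the 10 inner medulla and thin limb genes, all measured, 6 were highest in control 1, against 29.23% of all ranked genes. Cryab, the bright small heat-shock protein gene of the medulla, did not follow (83020, 96093 and 93906), nor did Akr1b1, the sorbitol-making enzyme gene (308.3, 300.3 and 324.5). The summed signal of the list was 96210, 108100 and 105000, most of it from Cryab, with control 1 lowest. Without Cryab the other 9 genes summed to 13190, 12000 and 11100, with control 1 highest. How much medulla the pieces held was not tested.

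Cyp24a1, which degrades vitamin D, gave 679.9, 547.5 and 259.8 (2.62-fold, adjusted p = 0.08011), and its second probe gave 264.0, 232.6 and 93.72 in the same order. Its counterpart Cyp27b1, which activates vitamin D, gave 142.3, 129.8 and 185.8, with control 3 highest. The order of the animals was thus opposite for these 2 genes between control 3 and the others. The vitamin D receptor gene Vdr gave 178.7, 168.7 and 153.6.

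Some clock genes set control 2 apart from the other 2 animals. Of 17 measured genes, control 2 was highest for 5 and lowest for 11. Over all ranked genes it was highest for 27.03% and lowest for 7191 of 19970. In the molecular clock, Bmal1 and its targets, such as Dbp and Nr1d1, are expressed at opposite times of day. Bmal1 gave 1071, 1437 and 1090 (adjusted p = 0.3147), and Nfil3, another gene of that phase, gave 119.8, 180.6 and 125.1. Dbp gave 5315, 3911 and 5260 (adjusted p = 0.2059), Nr1d1 441.8, 341.9 and 466.3, and Per3 188.5, 139.1 and 187.5. Control 2 was thus highest for the first pair and lowest for the other 3 genes. Per1 (2368, 2387 and 2476) and Per2 (1492, 1406 and 1472) were even. None passed over all genes, and 6 of 17 measured genes had an unadjusted p under 0.05, against 5.914% of all genes. The time of day at which each animal was killed is not given in the sources used here.

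Genes of cholesterol synthesis were lowest in control 1 in 15 of 17 measured cases (6926 of 19970 over all genes). They were highest in control 3 in 13 (43.75% of all genes). Hmgcs1, an early enzyme of the pathway, gave 6126, 7844 and 7477, Idi1 3010, 3632 and 3886, and Insig1, a sterol sensor, 7067, 8322 and 8648. The median deviation of the list was -0.12 in control 1. No gene of the list passed over all genes.

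**Figure D4:**
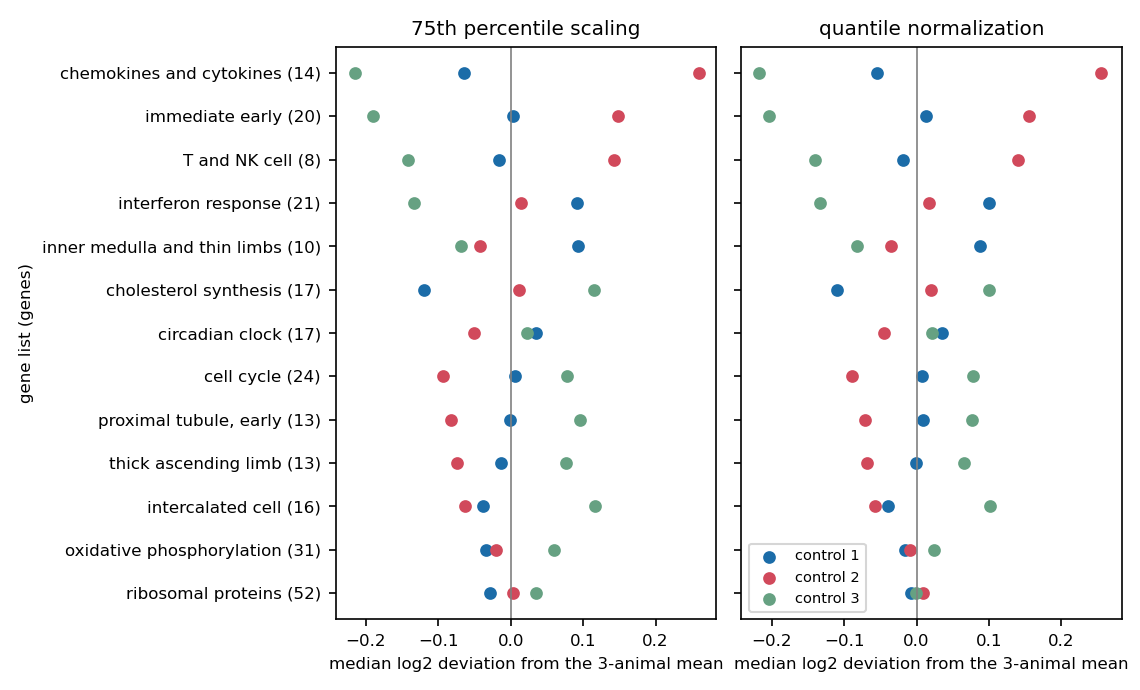
Median log2 deviation of 13 gene lists from the mean of the 3 undosed animals, with 75th percentile scaling (left) and quantile normalization (right), each point 1 animal. The chemokine, immediate early, T and NK cell, interferon and cholesterol lists keep their order under both scalings, and the ribosomal protein list has no separation of animals on the right.

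Several lists of bright genes were highest in control 3. Control 3 was highest for 43.75% of all ranked genes and for 66.25% of the brightest 10%, but for 35.5% of the dimmer 50%. After quantile normalization the share in the brightest 10% was 36.96%. Ribosomal protein genes were highest in control 3 in 42 of 52 cases, and in 19 of 52 after quantile normalization, when the list's median deviation in control 3 went from 0.03 to below 0. Genes of oxidative phosphorylation were highest there in 29 of 31 cases, and in 22 of 31 after quantile normalization. The share of all ranked genes highest in control 3 was then 37.22%. The spike-in probes went the other way, with median deviations of 0.02, 0.05 and -0.08 in controls 1, 2 and 3.

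**Figure D5:**
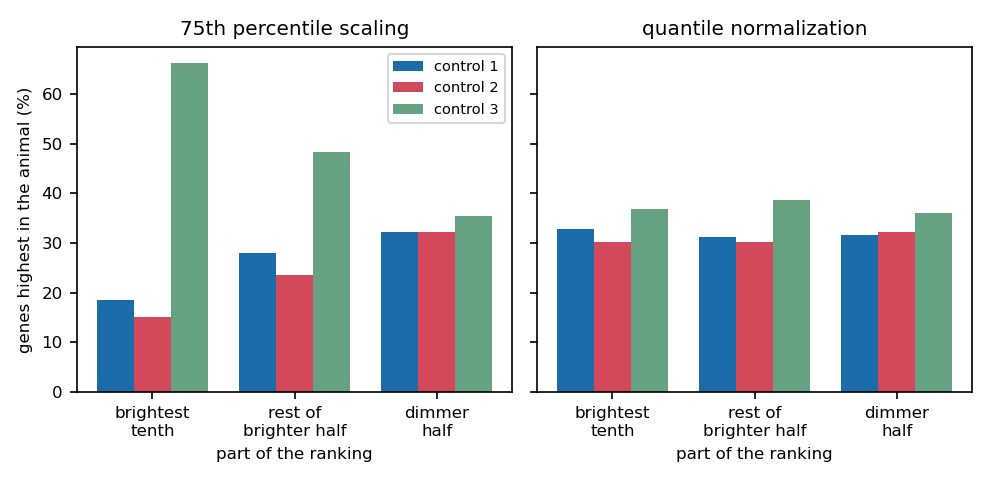
Percentage of ranked genes that were highest in each of the 3 undosed animals, by part of the ranking, with 75th percentile scaling (left) and quantile normalization (right). Control 3 is highest for 66.25% of the brightest 10% on the left and for 36.96% on the right.

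Some lists kept control 3 highest with either scaling. The share of all ranked genes highest in control 3 was 43.75%, and 37.22% after quantile normalization. Intercalated cell genes were highest there in 15 of 16 cases, and in 14 of 16 after quantile normalization (Atp6v0d2 at 3131, 3260 and 3752; Atp6v1b1 at 252.4, 245.6 and 308.2). Early proximal tubule genes were highest there in 11 of 13 cases with both scalings. They were lowest in control 2 in 10 of 13 (7191 of 19970 over all genes before quantile normalization). Thick ascending limb genes were highest in control 3 in 11 of 13 cases. After quantile normalization 7 of 13 were, and 4 were highest in control 1. Cell cycle genes were highest in control 3 in 15 of 24 cases, and in 16 of 24 after quantile normalization. They were lowest in control 2 in 18 of 24 cases with both scalings, against the same 7191 of 19970. Rrm2 gave 209.3, 166.5 and 242.5, with control 3 highest. Ccnb1 (797.3, 633.3 and 705.3) and the proliferation marker Mki67 (207.4, 176.3 and 195.2) were highest in control 1. No gene of these 4 lists passed over all genes.

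Genes read as signs of tubular injury differed among themselves. Of 19 measured genes of 20, 14 lay in the brighter 50% and 8 had an unadjusted p under 0.05, against 5.914% of all genes; none passed over all genes. The mucosal peptide gene Tff3 was the brightest, at 54287, 63823 and 58846. Lcn2 was not well above background on any array. Havcr1, the kidney injury molecule, was dim and uneven at 34.34, 52.58 and 88.05, a 2.56-fold range (adjusted p = 0.2557), with control 3 highest. Clu (3160, 3043 and 3494), Spp1 (23725, 25226 and 21471), Timp1 (1138, 1288 and 1244) and Vim (3951, 4104 and 3885) had SDs of 0.04 to 0.12. Among stress genes, Hspa1a gave 1409, 1868 and 1398, and Hmox1, the heme-degrading enzyme, gave 669.8, 639.1 and 675.7. The metallothionein gene Mt1 gave 26212, 31998 and 22781 (adjusted p = 0.2059).

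Some genes with a wide spread belonged to none of the lists. Mob1b gave 27.94, 36.74 and 187.4, the widest range of the named genes (6.71-fold, adjusted p = 0.08083), with control 3 high at a dim signal. Of 10 named genes with a 2-fold range and more than 1 measured probe, 4 had a second probe with a 2-fold range too. These were Cyp24a1, Nr4a3, Ccl7 and Il1b. For Il1b the animal farthest from the mean differed between the 2 probes. For Rapgef1, Vamp1, Kcng2 and Ulk4, as for Slc14a2, the other probes did not reach a 2-fold range. Cd83 fell just short of it, with a log2 range of 0.9924 for the other probe. Cebpd (5048, 7305 and 4247), an acute-phase transcription factor gene, and Tf, transferrin (4129, 4785 and 2754), were bright and had control 2 highest (adjusted p = 0.1257 for both).

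At the other end, the 10 named genes with the smallest SD gave nearly the same signal in each animal. The zinc finger gene Zfp24 gave 5414, 5412 and 5406, the endosomal sorting gene Vps4b 1439, 1438 and 1437, and the splicing regulator gene Ptbp1 33705, 33642 and 33631. With 3 animals and 19970 genes, no test of small spread was made.

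The spread of the same genes in the dosed animals was widest at 300 mg/kg. The median SD was 0.0705 at 150 mg/kg, 0.107 at 300 mg/kg and 0.0676 at 600 mg/kg, against 0.0637 in the controls. The chemokine list had median SDs of 0.2855 in the controls and 0.3438, 0.1473 and 0.1921 in the dosed groups in order of dose. The interferon list had 0.1507, and then 0.264, 0.1659 and 0.1893, and the cholesterol list had 0.1239, and then 0.1219, 0.0753 and 0.0592. These differences between groups were not tested.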

How the data were processed

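RNA from kidney cortex of 12 rats was hybridised to 1-colour arrays, and the 3 control arrays were used here. Per the file headers, intensities came from Agilent Feature Extraction 9.1.3.1, with local background subtraction and detrending and no scaling between arrays; the deposited files hold linear intensities and flags of 0 or 1. The authors' value table is a ratio on a linear scale: every one of 40749 single-spot probes was, to within 0.1%, its processed signal (floor of 5) over an array constant (61.99 to 65.38). All 12 of its columns were mapped.

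Log2 processed signals were averaged per probe, leaving out outlier spots, and the array's 75th percentile was subtracted. Each gene's variance was tested with limma 3.58.1 in R 4.3.3 (robust prior with trend, 2 residual degrees of freedom, one-sided, Benjamini-Hochberg over all genes). The test was checked on data simulated from the model that it assumes, with the prior fitted to these arrays. That check does not cover data that depart from the model. The number of arrays limits the precision. The labels number the replicates without saying that each is a separate animal; they are called animals here, and p-values measure only the spread between these samples, which may be technical. Symbols and promoter windows came from RefSeq (GRCr8), with windows for 8747 of 10711 named genes. Genes to be named were the 40 brightest, up to 30 with the largest SD among those called as varying, the 10 with the smallest SD and the members of the lists. The text takes a selection from these. Some other genes with a wide spread, such as Mob1b, Cebpd and Tf, were named outside this rule. The members and lists were chosen with earlier results of these data known. Alternatives were quantile and median scaling, normexp correction (offset 50), the value table, other probe rules, filters and priors, and leaving out each control. Some items are not reported here.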

Additional observations from a re-analysis of the deposited data

How the results depend on the processing

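The 2 calls depended on the processing. No gene was called (0) with quantile normalization, with a prior that was not robust and with a prior without trend; the SDs were then 1.0785, 1.0682 and 1.0682 for Ccl2 and 1.236, 1.2378 and 1.2378 for Slc14a2, so it was the limit and not the spread that moved. The count was 8 with a median shift, 10 with normexp correction and 545 with no filter on dim probes, where probes near background enter. It was 1, Ccl2, with the brightest probe over all 12 arrays, the mean of the probes, and probes well above background on all 12 arrays; Slc14a2 then had SDs of 0.1623, 0.5513 and 0.1623. With 1 control left out the count ran from 0 (without control 2) to 94 (without control 1), the SD of Ccl2 from 0.3828 to 1.457 and that of Slc14a2 from 0.1833 to 1.5993. The adjusted p of Ccl2 ran over all alternatives from 8.415e-06 to 0.9262 and that of Slc14a2 from 1.411e-05 to 0.9952. The median deviation of ribosomal protein genes in control 3 changed sign with quantile normalization (-1e-04); of the other list deviations followed, none changed sign. The number of genes ranked and the 100 brightest genes were steadier: 82 to 100 of the 100 were shared under each alternative, the fewest with the mean of the probes. No paired analysis was possible because only the control group is described. Signal over background limits the dimmer genes, where 127 of the 130 genes with a 2-fold range lie.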
